A study of Mus musculus with 8 samples.

Results

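The Hoxa cluster and Meis1 were followed through every probe set whose platform gene symbol was one of Hoxa2, Hoxa3, Hoxa4, Hoxa5, Hoxa6, Hoxa7, Hoxa9, Hoxa10 and Meis1. This gave 17 of the 45037 probe sets on the arrays, for 8 of the 9 genes. Hoxa6 was listed for no probe set and was not analysed here. The RNA was that of Fraction B pro-B cells, an early B-cell progenitor sorted from bone marrow as B220+ CD43+ HSA+ BP-1- cells. The menin-deficient group was 4 Rag1-cre;MenF/F mice, in which Cre named for Rag1, a gene active in early lymphoid cells, acts on floxed Men1. The control group was 4 MenF/F mice, which carry the same floxed alleles without Cre. Ages were given as 2 to 3 weeks in the sample labels and as the upper end of that span in the design text. Cre and menin loss went together in every mouse, so their effects cannot be told apart.

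Hox genes encode homeodomain transcription factors that lie in clusters and are expressed in an order along the chromosome that follows the body axis in the embryo. In blood formation the Hoxa cluster is used in stem and progenitor cells and is switched off as cells mature. Hoxa9 is a main Hox gene of haematopoietic progenitors and contributes to lymphoid development. Meis1 is a TALE-class homeodomain protein that binds DNA together with Hox and Pbx proteins. Menin, the product of Men1, tethers the histone methyltransferase MLL (Kmt2a) to target genes, and the Hoxa cluster and Meis1 are known targets of that complex in leukaemia.

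Each mouse gave 1 array with log2 values between 2.08 and 17.4, and 36.1% to 36.7% of the probe sets of an array held the lowest value. A probe set was tested if it exceeded its own array's 40th percentile, a value of 2.09 to 2.10, on at least 4 of the 8 arrays. Men1 itself fell in menin-deficient cells: its brightest probe set read 7.85, 8.24, 8.49 and 8.03 in menin-deficient replicates 1 to 4, against 9.59, 9.19, 9.58 and 9.81 in control replicates 1 to 4 (log2 difference -1.39, SE 0.18, limma adjusted p = 0.00617). The position of these probes relative to the floxed exons was not analysed here. Pro-B markers were high in both groups, and 13 of 14 listed markers had a probe set. Their mean log2 value lay between 14.15 and 14.28 in menin-deficient and between 13.98 and 14.17 in control arrays. On summed linear values the groups did not overlap (log2 18.594 to 18.724 and 18.486 to 18.586). Of the 13 tested, Dntt and Vpreb3 were higher (0.35 and 0.42, limma adjusted p = 0.00681 and 0.026). Rag1 was lower (-0.28, limma adjusted p = 0.0434). Among 11885 tested genes 13.6% were higher and 4.38% lower at an adjusted p under 0.05. Enpep, which encodes the BP-1 antigen absent from the sorted surface, averaged 11.69 ± 0.84 in menin-deficient and 11.40 ± 0.52 in control arrays (log2, SD, n = 4 each).

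Hoxa5, Hoxa7, Hoxa9 and Meis1 were lower in menin-deficient pro-B cells than in control cells, on their brightest probe sets by 2.28-fold to 3.17-fold. Their 7 probe sets above the filter all had menin-deficient values below every control value, and 5 of the 7 passed the threshold (limma, Benjamini-Hochberg adjusted p under 0.05 over 26790 probe sets). None was called higher. Among all tested probe sets 4.87% were called lower, 9.34% higher, and 7.05% were lower with groups that did not overlap. On the brightest probe set of each gene all 4 tested members were called lower, where 4.38% of 11885 tested genes were called lower and 6.06% were lower without overlap. The other 10 probe sets, which were those of Hoxa2, Hoxa3, Hoxa4 and Hoxa10 and 1 of Meis1, lay within 0.1 of the lowest value on all 8 arrays and were not tested. A probe set could pass the filter through one group alone, so the tested probe sets are not a sample of all members.

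**Figure D1:**
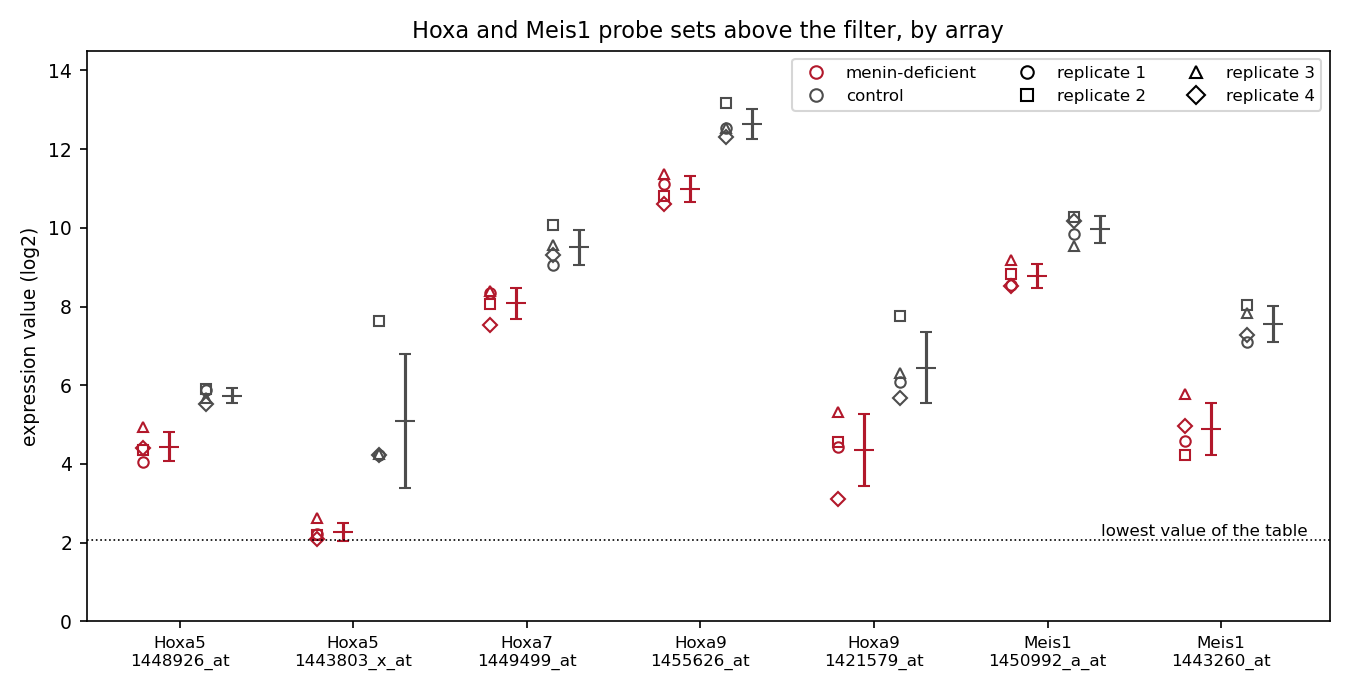
Log2 expression values (vertical axis) of the 7 tested Hoxa and Meis1 probe sets, with menin-deficient arrays in red to the left of control arrays in grey. Symbols are single arrays by replicate number, bars are the mean and SD of 4 arrays, and the dotted line is the lowest value of the table (2.08). In each of the 7 probe sets the menin-deficient arrays lie below all control arrays.

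Along the cluster, the end that holds Hoxa2, Hoxa3 and Hoxa4 read at the floor in both groups. These genes pattern the hindbrain and neck region in the embryo. The 1 probe set of Hoxa2, the 4 of Hoxa3 and the 2 of Hoxa4 read 2.08 on every array of both groups. A level at this floor only says that the probe sets gave no measurable signal, so whether the low end of the cluster differed between groups was not detectable.

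Hoxa5, a regulator of lung and skeletal patterning that is also expressed in blood progenitors, lay at a low level in both groups. Its brightest probe set, 1448926_at, read 4.06, 4.35, 4.95 and 4.41 in menin-deficient replicates 1 to 4, against 5.88, 5.89, 5.67 and 5.51 in control replicates 1 to 4. The highest menin-deficient array stayed below the lowest control array. Hoxa5 fell by 1.30 on the log2 scale on this probe set, which is 2.46-fold lower (SE 0.19, limma adjusted p = 0.00922).

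The other Hoxa5 probe set, 1443803_x_at, has the suffix of sets whose probes may also bind other transcripts. It read 2.22, 2.20, 2.62 and 2.09 in menin-deficient replicates 1 to 4, against 4.22, 7.64, 4.26 and 4.24 in control replicates 1 to 4. The menin-deficient arrays were at or near the floor, and control replicate 2 stood far above the other control arrays. The difference was -2.81 (SE 0.79, limma adjusted p = 0.0591) and did not pass the threshold. Without control replicate 2 it was -1.96 with a limma adjusted p of 0.00357. A fold against values this close to the floor is approximate.

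Hoxa7, a Hox gene expressed in haematopoietic progenitors, had 1 probe set, 1449499_at. It read 8.34, 8.06, 8.38 and 7.53 in menin-deficient replicates 1 to 4, against 9.05, 10.07, 9.57 and 9.30 in control replicates 1 to 4. The groups did not overlap, and menin-deficient replicate 4 was the lowest array. Hoxa7 fell by 1.42 on the log2 scale, which is 2.68-fold lower (SE 0.27, limma adjusted p = 0.0188). Without menin-deficient replicate 2 the call was lost (difference -1.42, limma adjusted p = 0.057).

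Hoxa9 gave its signal on 1455626_at at 11.11, 10.82, 11.37 and 10.62 in menin-deficient replicates 1 to 4, against 12.55, 13.18, 12.53 and 12.32 in control replicates 1 to 4. The menin-deficient arrays stayed well above the floor, so the gene was lower but still measured in every menin-deficient mouse. Hoxa9 fell by 1.66 on the log2 scale on this probe set, which is 3.17-fold lower (SE 0.23, 95% interval -2.21 to -1.12, limma adjusted p = 0.00793). The second probe set, 1421579_at, read 4.43, 4.56, 5.31 and 3.11 in menin-deficient replicates 1 to 4, against 6.07, 7.76, 6.30 and 5.67 in control replicates 1 to 4. It too had groups that did not overlap, with a wider spread inside each group. Its difference of -2.10 (SE 0.60, limma adjusted p = 0.0602) did not pass the threshold.

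Hoxa10, the neighbour of Hoxa9 and another progenitor Hox gene, had 2 probe sets, and both read 2.08 on all 8 arrays. Hoxa11 and Hoxa13, genes of limb and urogenital patterning further along the cluster, also read 2.08 in both groups. Hoxa11os, an antisense transcript, had 1 tested probe set at 2.11 in menin-deficient and 2.12 in control arrays, next to the floor. Within the cluster, signal clearly above the floor was measured on the probe sets of Hoxa5, Hoxa7 and Hoxa9.

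Meis1, on chromosome 11 and thus away from the cluster, had 3 probe sets. The brightest, 1450992_a_at, read 8.55, 8.82, 9.19 and 8.53 in menin-deficient replicates 1 to 4, against 9.85, 10.27, 9.53 and 10.18 in control replicates 1 to 4. The groups did not overlap, although menin-deficient replicate 3 came close to control replicate 3. Meis1 fell by 1.19 on the log2 scale there, which is 2.28-fold lower (SE 0.21, limma adjusted p = 0.0151).

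The probe set 1443260_at of Meis1 read 4.58, 4.22, 5.77 and 4.96 in menin-deficient replicates 1 to 4, against 7.09, 8.05, 7.83 and 7.28 in control replicates 1 to 4. Here the groups were further apart than on the brighter probe set. The difference was -2.68, or 6.39-fold lower (SE 0.37, 95% interval -3.55 to -1.80, limma adjusted p = 0.00783). The interval for the brighter probe set was -1.69 to -0.69, and the difference between the probe sets was not tested. The remaining probe set of Meis1, 1459423_at, read 2.08 on every array.

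**Figure D2:**
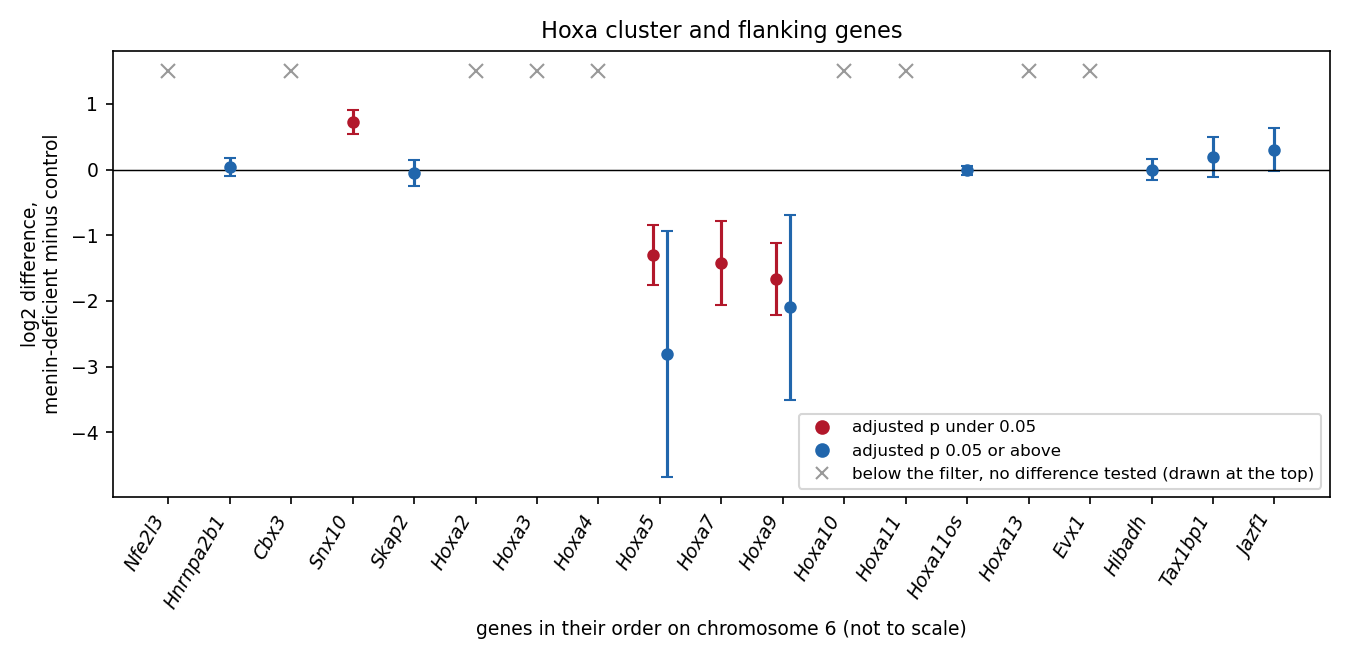
Log2 difference, menin-deficient minus control (vertical axis), for tested probe sets of the Hoxa genes and for the brightest probe set of the other genes, in chromosome order by RefSeq (horizontal axis, not to scale). Points are estimates with 95% intervals from limma, n = 4 arrays a group, and crosses mark genes below the filter. Hoxa5, Hoxa7 and Hoxa9 lie between -2.81 and -1.30, and Snx10 is the flanking gene with the largest difference drawn (0.72).

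The promoters of the 4 genes that were measured and fell are shown because they fell together. Of the 9 genes, 8 had a RefSeq start site sequence (GRCm38.p6), with 2 windows for Hoxa10 and none for Hoxa4. The 250 bases before each start are given 5′ to 3′, with capitals marking CG dinucleotides, the sequence that the CXXC domain of MLL binds when unmethylated.
Hoxa5 (chr6:52204588-52204837, minus strand): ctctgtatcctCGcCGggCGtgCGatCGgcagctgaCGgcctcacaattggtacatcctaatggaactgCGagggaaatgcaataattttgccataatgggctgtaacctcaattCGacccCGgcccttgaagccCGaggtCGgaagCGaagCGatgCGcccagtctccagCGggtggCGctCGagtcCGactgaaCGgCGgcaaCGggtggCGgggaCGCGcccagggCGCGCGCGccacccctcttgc
Hoxa7 (chr6:52218574-52218823, minus strand): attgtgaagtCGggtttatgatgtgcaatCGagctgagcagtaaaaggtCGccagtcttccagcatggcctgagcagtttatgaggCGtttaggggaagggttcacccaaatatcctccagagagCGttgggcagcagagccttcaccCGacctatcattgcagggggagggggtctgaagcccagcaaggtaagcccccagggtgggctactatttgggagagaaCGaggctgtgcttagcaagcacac
Hoxa9 (chr6:52227371-52227620, minus strand): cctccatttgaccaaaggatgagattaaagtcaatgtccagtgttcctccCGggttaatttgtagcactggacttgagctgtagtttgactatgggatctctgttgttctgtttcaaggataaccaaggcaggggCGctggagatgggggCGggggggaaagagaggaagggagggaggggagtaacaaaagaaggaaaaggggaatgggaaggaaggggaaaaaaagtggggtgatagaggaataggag
Meis1 (chr11:19018970-19019219, minus strand): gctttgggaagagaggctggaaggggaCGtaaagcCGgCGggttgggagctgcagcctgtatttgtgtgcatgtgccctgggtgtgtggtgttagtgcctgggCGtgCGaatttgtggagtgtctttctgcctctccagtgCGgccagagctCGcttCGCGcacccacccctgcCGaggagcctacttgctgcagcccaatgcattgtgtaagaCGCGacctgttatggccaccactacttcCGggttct

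CG content was not shared among these windows. Hoxa5 had 28 CG dinucleotides, Meis1 13, Hoxa7 7 and Hoxa9 3, where the median of 32851 windows of all genes was 6. The windows of genes at the floor covered a similar span, with 6 in Hoxa2, 18 in Hoxa3 and 20 and 7 in Hoxa10. Each window follows a listed start, and other starts of these genes were not analysed here. The Hoxa3 window (chr6:52213068-52213317) lies between those of Hoxa6 and Hoxa7, past that of Hoxa5. The letters TGACAG, a motif of MEIS proteins, and TGATTNAT, a motif of Hox-Pbx pairs, were searched on both strands. Neither was found in the printed windows. TGACAG occurred in the windows of Hoxa2 and Hoxa3, and TGATTNAT in that of Hoxa2, where both motifs were present without overlap. Among all windows 15.9% held TGACAG and 2.82% held TGATTNAT.

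On their brightest probe sets, no tested gene next to the cluster was called lower. Of 8 flanking genes 6 were tested: 1 was higher, 0 were lower and 5 missed the threshold (median difference 0.12, against 0.11 over 11885 tested genes by their brightest probe set). Among those 11885 genes 13.6% were called higher. Skap2, an adaptor protein gene beside the Hoxa2 end of the cluster, averaged 14.27 in menin-deficient and 14.33 in control arrays, a difference of -0.06 (limma adjusted p = 0.692). A dimmer probe set of Skap2 was higher by 0.62 (limma adjusted p = 0.0442), and on the mean of its probe sets the sign turned (0.22). Snx10, a sorting nexin gene, rose by 0.72, with 12.10 to 12.34 in menin-deficient and 11.31 to 11.56 in control arrays (limma adjusted p = 0.00382). Its other probe set differed by 0.44 (limma adjusted p = 0.517). Over all 16 tested probe sets of these flanking genes 2 were higher and 0 lower, and after median centring 1 probe set of Tax1bp1 was lower (-0.40, limma adjusted p = 0.0438). Of 6 tested genes on both sides of Meis1, on brightest probe sets, 0 rose and 1 fell: Plek, encoding pleckstrin, fell by 0.31 (limma adjusted p = 0.0174). Another Plek probe set was lower too (-0.66, limma adjusted p = 0.0403), and the remaining one differed by -0.09. Among all 18 tested probe sets around Meis1, 1 of Rab1a was also lower (-0.33, limma adjusted p = 0.0253) and 1 of Cep68 higher (0.85, limma adjusted p = 0.0148).

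The other Hox clusters were mostly at the floor. Of 28 listed Hoxb, Hoxc and Hoxd genes 24 had a probe set, 18 of these read within 0.1 of the lowest value on all arrays, and 6 were tested. Hoxc6 was in both counts, and Hoxc4 (2.95 in control replicate 3, else at the floor) in neither. The tested Hoxb3, Hoxb13, Hoxc5 and Hoxc6 were low, averaging 2.10 to 2.95 in both groups. In all, 0 rose and 1 fell. Hoxb4, a Hox gene of haematopoietic stem cells, averaged 7.14 ± 0.09 in menin-deficient and 7.53 ± 0.19 in control arrays (log2, SD, n = 4 each), lower by 1.31-fold (limma adjusted p = 0.0453). That call was lost under 11 of 20 alternatives. Hoxb6 went the other way without passing: it read 3.40, 6.22, 3.12 and 2.79 in menin-deficient replicates 1 to 4 and 2.08 in each control array (difference 1.80, limma adjusted p = 0.148). All 4 menin-deficient arrays were above the floor and replicate 2 was the highest.

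The partners of Hox and Meis proteins were tested as a list of 11 TALE homeodomain and related genes. Among the 7 tested, 1 was higher, 0 were lower and 6 missed the threshold (median difference 0.32). Pbx2, which forms Hox-binding pairs with Meis1, rose by 0.27 (limma adjusted p = 0.0376), a call lost under 12 of 20 alternatives, median centring of the arrays among them. Another Pbx2 probe set was higher as well (0.58, limma adjusted p = 0.0273), and the remaining one differed by 0.08. Pbxip1, encoding a Pbx-binding protein, differed by 0.50 (limma adjusted p = 0.0784). Meis2 and Meis3 lay at the floor, so Meis1 was the member of its family with measurable signal on these arrays.

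Among 21 genes of the MLL, menin and DOT1L complexes, which place or read the histone marks of active Hox genes, 2 rose and 1 fell (median difference 0.06). The fall was Men1. Ash2l, a core subunit of MLL complexes, rose by 0.47, with 12.21 to 12.41 in menin-deficient and 11.79 to 11.95 in control arrays (limma adjusted p = 0.0085). Its other probe set was higher by 0.44 (limma adjusted p = 0.0156). Mllt6, a gene found fused to MLL in leukaemia, rose by 0.82 (limma adjusted p = 0.0101), while its other probe sets were at low levels (3.12 and 2.09 in menin-deficient arrays). Of 20 tested genes of Polycomb complexes, which silence Hox clusters, and of related factors, among them the opposing demethylases Kdm6a and Kdm6b, 1 rose and 1 fell on brightest probe sets (median difference 0.03). Over all 45 tested probe sets of the list 1 was higher and 4 lower. Asxl1 fell by 0.33 (limma adjusted p = 0.00807), though another probe set differed by -0.09. Phc2 rose by 0.46 (limma adjusted p = 0.0268), a call lost under 9 of 20 alternatives, and its other probe set differed by -0.27. After median centring that other probe set was lower (-0.33, limma adjusted p = 0.043). Suz12, a core subunit of the same complex as Ezh2, differed by -0.17 on its brightest probe set (limma adjusted p = 0.459). Of its 5 other probe sets 2 were lower, by 1.37 and 1.88 on the log2 scale (limma adjusted p = 0.0207 and 0.0329), and 3 did not pass. Jarid2, a cofactor of that complex, differed by -0.12 on its brightest probe set (limma adjusted p = 0.583) and was lower on another (-0.52, limma adjusted p = 0.00428). Ezh2, the Polycomb methyltransferase, differed by 0.04 (limma adjusted p = 0.643), a sign that turned to -0.014 after median centring.

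On the deposited scale, genes linked to Hoxa9 and Meis1 in progenitors or leukaemia went both ways. Among the 22 tested, 2 were higher, 2 were lower and 18 missed the threshold on brightest probe sets (median difference 0.22). Over all 61 tested probe sets of the list 5 were higher and 5 lower, which adds calls on dimmer probe sets of Id2 and Dnajc10 (higher) and Bcl2 (lower). After median centring, probe sets of Msi2 and Sox4 were lower too (-0.78 and -0.56, limma adjusted p = 0.0436 and 0.0388). A Dnajc10 probe set no longer passed then (0.31, limma adjusted p = 0.0821). Eya1, a co-activator and phosphatase, read 6.51, 6.20, 6.16 and 6.13 in menin-deficient replicates 1 to 4, against 10.16, 10.35, 9.95 and 10.93 in control replicates 1 to 4 (difference -4.10, limma adjusted p = 0.00044). This is further apart than any tested Hoxa or Meis1 probe set. Mef2c, a transcription factor of B-cell progenitors, fell by 0.27 (limma adjusted p = 0.0404), a call lost under 13 of 20 alternatives. Its other 4 probe sets were lower by 0.34 to 0.62, and 1 of these passed (-0.62, limma adjusted p = 0.0123). Erg and Lmo2, progenitor transcription factors, rose by 0.36 and 0.46 (limma adjusted p = 0.0171 and 0.0366). After median centring neither passed (limma adjusted p = 0.0609 and 0.0597), and another Erg probe set differed by -0.04. Myb, which is needed in progenitors and B cells, averaged 15.41 in menin-deficient and 15.42 in control arrays.

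**Figure D3:**
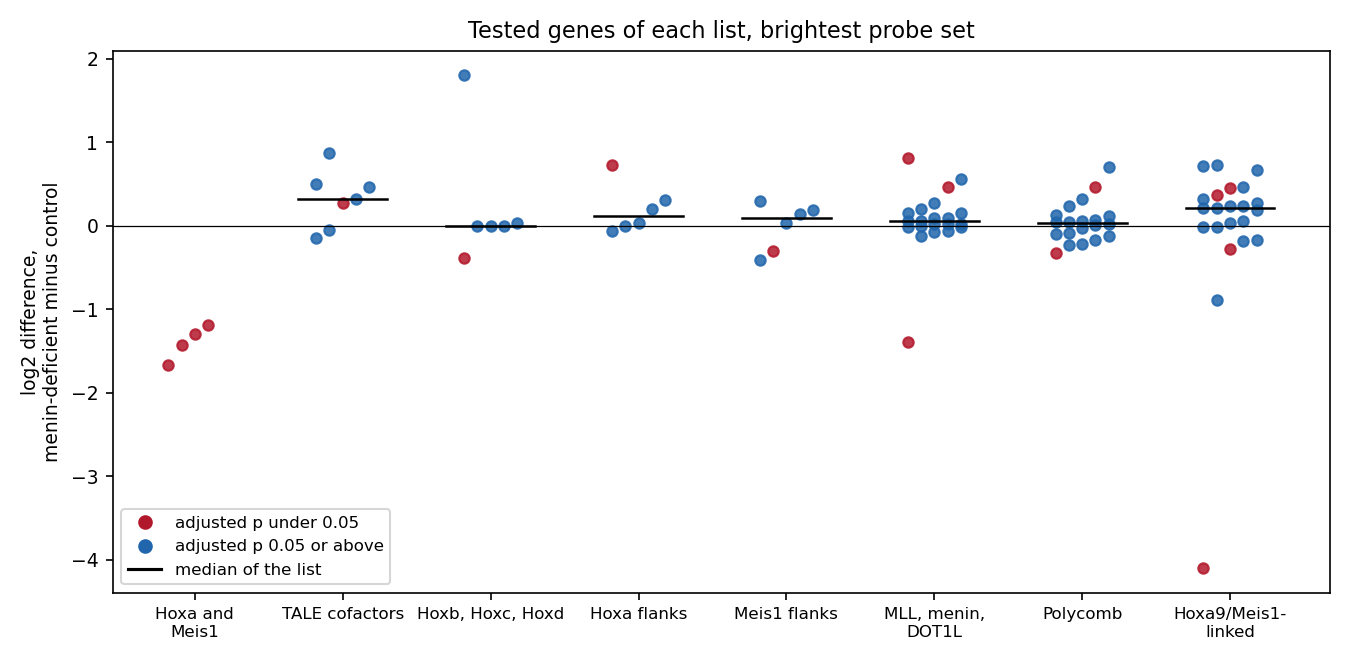
Log2 difference, menin-deficient minus control (vertical axis), of each tested gene on its brightest probe set, by gene list. Points are genes, red with an adjusted p under 0.05, and black lines are medians of the lists (none is drawn for the members). The 4 tested Hoxa and Meis1 genes lie between -1.66 and -1.19, while Eya1 (-4.10) and Men1 (-1.39) are the other genes drawn below -1.

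Within each group 1 mouse was high for the whole set. Menin-deficient replicate 3 was the highest menin-deficient array in 7 of 7 tested member probe sets, and control replicate 2 was the highest control array in 7 of 7. Among all tested probe sets these arrays were highest in 26.6% and 20.7%. Menin-deficient replicate 4 was the lowest of its group in 5 of 7, and in 19.8% of all tested probe sets. Some of the highest ranks were near ties. Hoxa5 1448926_at read 5.894 in control replicate 2 and 5.882 in control replicate 1. Hoxa7 read 8.384 in menin-deficient replicate 3 and 8.34 in menin-deficient replicate 1. The probe sets of a gene share its RNA and all share the array, so these counts are a description.

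Markers of several other cell types moved with the arrays too, though not all lists did. The NK cell list (6 of 7 genes with a probe set) had a mean log2 value of 8.17 in menin-deficient replicate 3. The rest of that group had 7.12 to 7.30. In control replicate 2 the list mean was 7.01, against 6.54 to 6.88 in the other controls. Of its genes Ncr1 was lowest in menin-deficient replicate 3 (4.33, against 4.63 to 4.81), where the others were highest. The granulocyte and monocyte list (11 of 13) was also highest in those arrays, at 9.97 in menin-deficient replicate 3 and 9.11 in control replicate 2. The megakaryocyte list (5 of 6) was highest in the same arrays at 4.18 and 3.93, the latter beside 3.92 in control replicate 3. Gp9 lay within 0.1 of the floor on all arrays, and Ppbp and Vwf on most arrays. On the log2 of the summed linear values of this list, menin-deficient replicate 4 (7.96) was above replicate 3 (7.94). The erythroid list (6 of 8) was highest in menin-deficient replicate 4 (7.80, against 7.74 in replicate 3) and in control replicate 2 (7.79). The early progenitor list without Meis1 (9 of 11) was 7.43 in menin-deficient replicate 3, where it was highest, and 6.79 in both control replicates 2 and 3. On summed linear values it was highest in menin-deficient replicate 4 and control replicate 3 (log2 12.415 and 12.141). Enpep ran the other way: it read 12.12, 12.03, 10.44 and 12.17 in menin-deficient replicates 1 to 4 and 11.52, 10.63, 11.68 and 11.76 in control replicates 1 to 4. It was thus lowest in the array of each group where the members were highest. Enpep is 1 of 8 listed markers of the next, pre-B stage. Ms4a1 and Ikzf3 were lowest in the same arrays, while Cd2 and Cd72 were highest in menin-deficient replicate 3 (11.97 and 14.69). The mean log2 value of that list was lowest in menin-deficient replicate 1 (11.905, against 11.931 in replicate 3). Among controls it was lowest in replicate 2 (12.119). On mean log2 values, menin-deficient replicate 3 and control replicate 2 were lowest for the T cell list (3.49 and 3.10) and the plasma cell list (9.53 and 9.86). They were lowest too for the plasmacytoid dendritic cell list (9.10 and 8.51). Some ranks were near ties: T cell 3.486 against 3.489 in menin-deficient replicate 4, and dendritic 8.505 against 8.509 in control replicate 3. On summed linear values, menin-deficient replicate 1 was lowest for the plasma cell and dendritic lists (log2 15.24 and 14.99, against 15.33 and 15.21 in replicate 3). The part of these cells in the Hoxa and Meis1 levels was not tested.

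**Figure D4:**
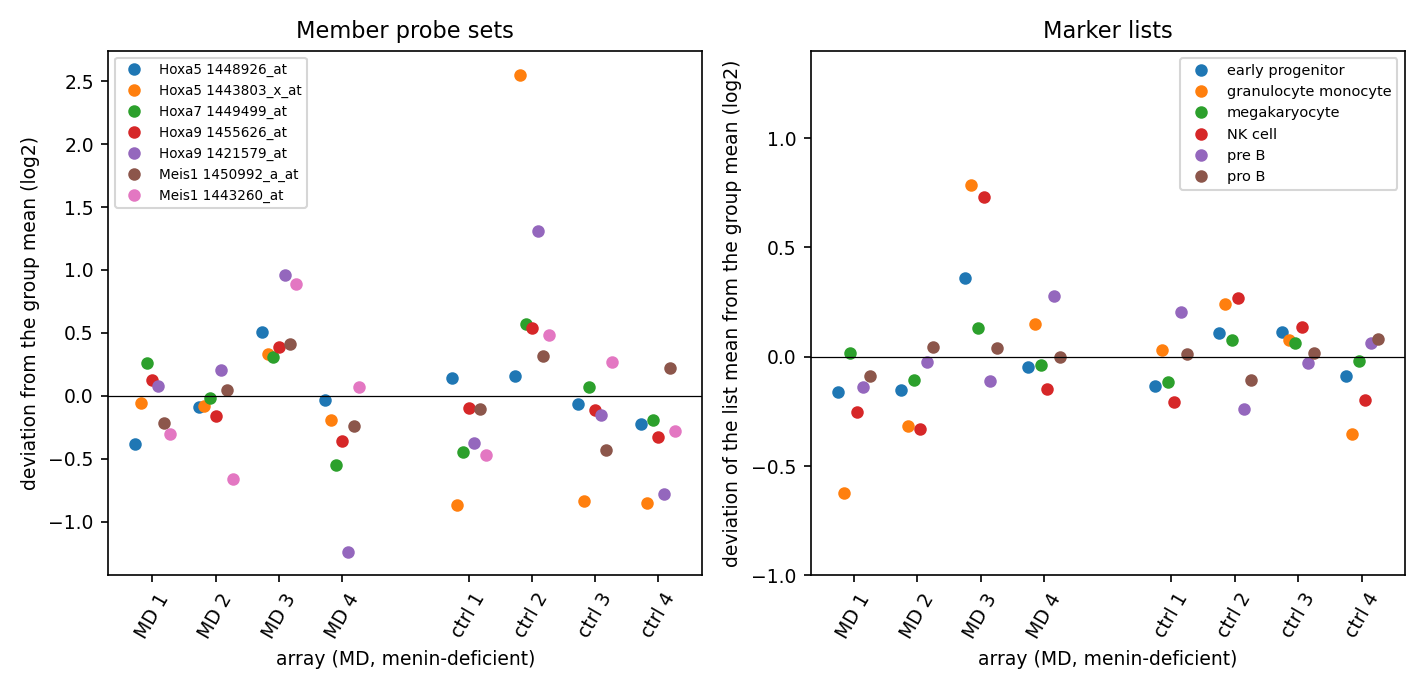
Deviation from the group mean (log2, vertical axes) on each array (horizontal axes) for the 7 tested member probe sets at left and for the mean of 6 marker lists at right, with menin-deficient (MD) arrays left of control (ctrl) arrays. MD 3 and ctrl 2 are the highest arrays of their groups for all 7 member probe sets. They are also highest for the NK cell, granulocyte and monocyte, and megakaryocyte lists, the last narrowly among the controls.

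Between the groups, the levels of these lists were as follows. The early progenitor list ranged from 6.91 to 7.43 in menin-deficient and from 6.55 to 6.79 in control arrays, without overlap on mean log2 values. On summed linear values the groups overlapped (log2 11.842 to 12.415 and 11.688 to 12.141). None of its 9 tested genes passed the threshold (median difference 0.28, against 0.11 over all tested genes). Flt3 and Cd34, both markers of early progenitors, differed by 0.66 and 0.73 (limma adjusted p = 0.0922 and 0.127). The NK list ranged from 7.12 to 8.17 in menin-deficient and from 6.54 to 7.01 in control arrays, with 2 of 6 tested genes higher. In the T cell list 2 of 4 tested genes were higher, and Cd3d, Cd3e and Cd4 were within 0.1 of the floor. The granulocyte and monocyte list overlapped between groups (8.56 to 9.97 in menin-deficient and 8.52 to 9.11 in control arrays), with 0 of 11 called. The plasmacytoid dendritic cell list did not overlap on mean log2 values, at 9.10 to 9.42 in menin-deficient and 8.51 to 8.77 in control arrays. On summed linear values it overlapped (log2 14.99 to 15.27 and 14.83 to 15.02). Of its 8 tested genes 1 passed, the chemokine receptor gene Ccr9 (1.65, limma adjusted p = 0.00984), and Tlr9 was within 0.1 of the floor. The plasma cell list ranged from 9.53 to 9.88 in menin-deficient and from 9.86 to 10.50 in control arrays, so the groups overlapped narrowly. On summed linear values it went the other way, at log2 15.24 to 15.42 in menin-deficient and 15.09 to 15.19 in control arrays. Of its 5 tested genes 2 fell and 1 rose, and its median difference was 0.13 although its mean was lower. Jchain, the joining chain of secreted antibodies, fell by 2.85 (limma adjusted p = 0.00961), and Sdc1, encoding CD138, by 1.16 (limma adjusted p = 0.00122). Mzb1 was higher by 0.34 (limma adjusted p = 0.0131).

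Markers of the next stage were also examined. Of 8 tested pre-B markers 0 rose and 2 fell (median difference -0.34), and the mean of the list was 11.90 to 12.32 in menin-deficient and 12.12 to 12.56 in control arrays. Il2ra, the CD25 antigen of pre-B cells, fell by 0.87 (limma adjusted p = 0.0289), a call lost under 9 of 20 alternatives. Ikzf3, encoding Aiolos, fell by 0.87 as well (limma adjusted p = 0.0213), a call lost under 5. In bulk RNA, fewer cells of a type and less RNA per cell cannot be told apart.

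The genes most like Hoxa9 and Meis1 across mice were picked by the Pearson correlation of deviations from group means over the 8 arrays. For the brightest Hoxa9 probe set these were Bak1, a pro-apoptotic BCL2-family gene (r = 0.978), Rusc1 (0.975), Mtmr9 (0.971), Zfp160 (0.969) and Nmt2, an N-myristoyltransferase gene (0.964). Of these Bak1 was lower in menin-deficient cells (-0.85, limma adjusted p = 0.00922), and the others differed by -0.25 to 0.16 without passing. For the brightest Meis1 probe set they were Lgals1, encoding galectin-1 (r = 0.974), Otulinl (0.973), Glud1 (0.970), 9430038I01Rik (0.969) and Gpsm1 (0.963). Lgals1 and Gpsm1 were higher in menin-deficient cells (0.55 and 0.83, limma adjusted p = 0.0102 and 0.0054). These are the highest of the correlations over all tested probe sets with 1 gene symbol, and the 8 arrays are few for such a search.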

How the data were processed

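Expression was measured on Affymetrix GeneChip mouse genome arrays, 1 per mouse, with RNA amplified in a single round and labelled with biotin, per the labels' protocols and the design text. The range of the deposited values is that of a log2 scale. MAS5 and GCRMA are named in the submitters' processing notes, without saying which produced these log2 values. No detection calls were used. Groups and replicate numbers come from the sample titles, and the descriptions call the replicates biological. Precision is limited by having 4 arrays a group.

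Manufacturer's controls (64 probe sets) were left out. Of 45037 probe sets, 34945 had 1 gene symbol in the platform annotation, 932 several and 9160 none. Only those with 1 symbol were named, and a gene without a listed probe set was not analysed here. Every probe set above the filter (26790) entered a linear model in limma 3.58.1 (lmFit, then eBayes, under R 4.3.3 with the data.table package, version 1.17.8), menin-deficient minus control without covariates, with Benjamini-Hochberg adjustment over all of them and a threshold of 0.05. For gene lists the brightest tested probe set stood for a gene. The fit was tested on simulated data. Plots used matplotlib 3.10.9 in Python 3.11.15. RefSeq tables (GRCm38.p6) gave names, gene order and promoter sequences.

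The members and lists were chosen with earlier results of these data known. The text names every member, Men1, list genes past the threshold (up to 4 a list with the lowest p) and some of those that did not pass (up to 2 a list with the highest means), and 5 genes most like Hoxa9 and Meis1. Flt3, Cd34, Il2ra, Ikzf3, Enpep and the plasma cell and dendritic cell genes were named after their values were seen. So were Dntt, Vpreb3, Rag1, Cd2, Cd72, Ms4a1, Ncr1, the dimmer probe sets of list genes and the genes at the floor. Replicates with the same number did not deviate together, with correlations of -0.05, -0.26, -0.14 and 0.08 for numbers 1 to 4, so the numbers were not used as pairs. By Xist and Eif2s3y, 2 menin-deficient mice and 1 control mouse were male. Alternatives were quantile normalization, median centring, other filters, other uses of a gene's probe sets, other variance models, array weights, sex as a covariate, a block for the replicate number, and leaving out each array.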

Additional observations from a re-analysis of the deposited data

Results flagged for a closer look

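In 5 of 82 groups of 4 values, 1 array lay far from the rest, and chance flags about 1 in 20 groups. Control replicate 2 read 7.64 on the Hoxa5 probe set 1443803_x_at, against 4.22 to 4.26 in the other controls. Menin-deficient replicate 1 read 6.51 for Eya1, against 6.13 to 6.20 in the other menin-deficient arrays. Menin-deficient replicate 2 read 11.50 for Plek, against 11.64 to 11.66, and menin-deficient replicate 1 read 11.18 for Phc2, against 11.34 to 11.36. Control replicate 3 read 5.93 on the dimmest Men1 probe set, where the other 3 control arrays all read 5.80.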

How the results depend on the processing

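All 7 tested member probe sets stayed lower in menin-deficient cells under each of the 20 alternatives that gave them a value, and none was called higher. The brightest Hoxa9 probe set kept its call in all 20 (-1.88 to -1.48, where -1.88 is the mean of the Hoxa9 probe sets). The Meis1 probe set 1443260_at kept its call in the 18 that gave it a value (-2.97 to -2.46). The count of member probe sets called was 4 to 6 when 1 array was left out. With the replicate block it was 2, where Hoxa5, Hoxa7 and the brightest Meis1 probe set had limma adjusted p of 0.0567, 0.063 and 0.078. By construction the block uses up degrees of freedom, and calls over all probe sets were 1083 with it and 3808 without. The second probe sets of Hoxa5 and Hoxa9 passed after median centring (limma adjusted p = 0.0462 and 0.0458) and with array weights (0.0375 and 0.0462). Genes called in the pathway lists, markers of cell types not counted, were 6 lower and 7 higher. The replicate block gave 2 lower and 4 higher, median centring and no filter gave 4 higher each, the filter at the 60th percentile 11 higher and array weights 12 higher. Leaving out 1 array gave 3 to 6 lower and 4 to 10 higher, with 3 lower without control replicate 1, and 4 higher without control replicate 1, control replicate 2 or menin-deficient replicate 2. Over all probe sets the calls numbered 1935 without a filter, 1786 without menin-deficient replicate 2, 2421 without menin-deficient replicate 4 and 1995 without control replicate 1. By gene they were 2536 on brightest and 2011 on mean probe sets. Rises made up 65.7% of calls as deposited and 52.3% after centring. Signs turned for genes near 0: Ezh2 to -0.0139 after centring, Skap2 to 0.223 on the mean of its probe sets, and Myb to 0.0248 with array weights. With 1 array left out, Skap2 ranged from -0.0965 to 0.0155 (above 0 without menin-deficient replicate 1) and Myb from -0.0442 to 0.0457 (above 0 without menin-deficient replicate 1, control replicate 3 or control replicate 4). The causes of these moves were not tested. Values at the floor carry no order.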
